A study of Homo sapiens with 42 samples.

Results

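The BMI1-shRNA derivative of RPMI-8226 was followed from 24 to 48 h without doxycycline, so that its hairpin had not been switched on, and the changes over that second day were measured across genes. Members were chosen by their titles alone: the 3 arrays at 48 h without doxycycline and the 3 at 24 h without it, 6 of the 42 arrays of the study, with the 3 undosed arrays at 32 h as the point between. RPMI-8226 is an established line from multiple myeloma, a cancer of antibody-secreting plasma cells. Every line of the study carried an integrated doxycycline-inducible shRNA, against BMI1 or a control, and cells were kept in Advanced RPMI medium with little serum. Where doxycycline was given, it was 100 ng/ml. RNA was read on Affymetrix U133 Plus 2 arrays, 1 per sample, in 14 groups of 3.

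The groups set beside the undosed BMI1-shRNA line were the control-shRNA line at 24 and 48 h without doxycycline and the BMI1-shRNA line at 24 and 48 h with it. The labels count time from induction, also for cells that received no doxycycline, and do not say when cells were plated or fed. Each hairpin was carried by a single derivative of the line. The labels number the replicates but do not call them separate cultures, so the p-values cover the spread between these arrays, which may be technical. For the BMI1-shRNA line at 0 h the labels contradict each other on doxycycline and on the line. Those 3 arrays were a side of no comparison, but they entered the estimate of spread that all p-values share.

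Cells growing in a closed volume of medium use up amino acids, glucose and growth factors between feedings. Known responses to this include the ATF4 programme, which induces amino acid transporters and synthetases, the FOXO factors, which induce inhibitors of the cell cycle, and withdrawal of the E2F programme of DNA replication. Sterol-sensing nuclear receptors (LXR) induce cholesterol exporters, and the kinase mTOR sets growth to nutrient supply through complexes named mTORC1 and mTORC2.

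The arrays were alike in quality. Between arrays of a group, correlations across genes were at least 0.982 at 24 h, 0.982 at 32 h and 0.979 at 48 h. The GAPDH 3-prime to 5-prime ratio, a sign of RNA quality, was 0.906 to 0.958 at 24 h and 0.92 to 0.972 at 48 h, and the median signal 17.5 to 19.5 and 17.6 to 21.9. Of 8 plasma cell markers checked, all 8 were tested, and the lowest had a mean signal of 471.9 at 24 h, so the plasma cell label is borne by the arrays. The line also gave strong signals for FN1, a matrix protein of fibroblasts, at 10319.6 to 12491.8 at 24 h, and for EPCAM, an epithelial adhesion protein, at 2995.2 to 3606.2. BMI1, the Polycomb subunit that the silent hairpin targets, read 963.4, 758.3 and 1058.9 at 24 h and 884, 1051 and 1128.8 at 48 h. Those groups overlapped, and the change was 0.15 ± 0.10 on the log2 scale (± SE, here and below; limma adjusted p = 0.569).

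Few genes passed the test of change over the second day, and most of those that passed moved by less than 2-fold. At 48 h against 24 h, 140 of 14705 genes passed (limma, Benjamini-Hochberg adjusted p under 0.05), which is 0.952% of those tested. A total of 78 rose (0.53%) and 62 fell (0.422%), and 1972 genes (13.4%) had an unadjusted p under 0.05. The median absolute log2 fold change of the 140 was 0.35, and 8 genes rose and 1 fell by at least 2-fold. All of these were dim. The 8 rises had mean signals of 16.5 to 64.6 at 48 h, and the fall, ZNF571-AS1, went from 24.8 to 6.5. Fold changes are on the log2(signal + 5.4) scale, which understates changes of dim genes. The 48 h and 24 h arrays did not overlap for 139 of the 140, against 18.8% of all genes. The 140 were called on these same arrays, so their separation follows from the choice and is a description. When arrays were instead centred on their medians, 51 genes passed, 9 up and 42 down, so the balance of rises and falls depends on the scaling; the median log2 change of all genes was 0.037 as deposited and -0.036 after centring. Without 48 h replicates 1, 2 and 3 the count was 78, 46 and 67, and without 24 h replicates 1, 2 and 3 it was 73, 68 and 40.

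**Figure D1:**
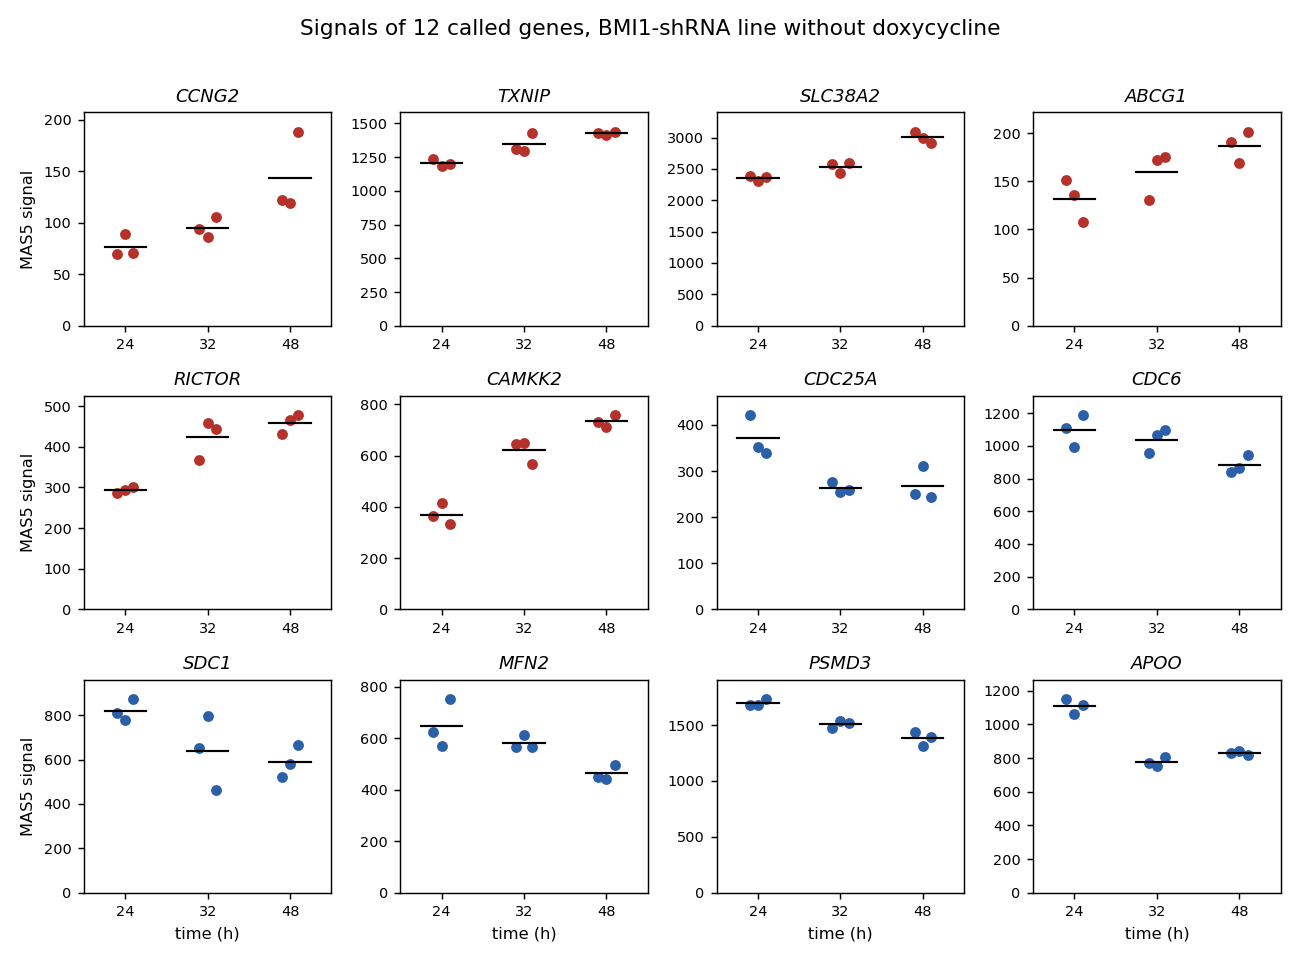
MAS5 signal (y axis, linear, from 0) at 24, 32 and 48 h (x axis) for 6 genes that rose (red) and 6 that fell (blue) at 48 h against 24 h in the BMI1-shRNA line without doxycycline. Each point is 1 array and each bar the mean of 3. No array at 48 h lies within the range of the 24 h arrays for any of the 12 genes, which were called on these same arrays. The 32 h arrays of TXNIP, SLC38A2, RICTOR, CAMKK2, CDC25A, PSMD3 and APOO all lie outside the 24 h range too.

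The largest rises among genes with a mean signal of at least 50 at one of the times included CCNG2, RICTOR, SESN2 and CAMKK2. CCNG2, cyclin G2, a cyclin of non-dividing cells, read 69.8, 89.5 and 70.4 at 24 h and 122.4, 119.2 and 188.3 at 48 h. All 3 arrays at 48 h were above all 3 at 24 h, and the log2 fold change was 0.84 ± 0.14 (limma adjusted p = 0.0018). Its other probe sets, all dimmer, gave 0.52, 0.55, 0.39 and -0.53. CCNG2 lost the call on the mean of its probe sets and in a fit of only the groups compared. RICTOR, the subunit that defines mTORC2, read 285.9, 294.1 and 299.9 at 24 h and 431.6, 466.7 and 477.3 at 48 h. It rose by 0.63 ± 0.12 (limma adjusted p = 0.00472), and its 3 other probe sets, which are dimmer, gave 0.17 to 0.22.

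SESN2, sestrin 2, a leucine sensor upstream of mTORC1, read 41.2, 63.9 and 34.9 at 24 h and 87.3, 66.6 and 82.3 at 48 h. The groups came close, 63.9 against 66.6, and the rise was 0.72 ± 0.16 (limma adjusted p = 0.0222). CAMKK2, a kinase that activates AMPK, had the largest rise of a bright gene, 0.99 ± 0.17 (limma adjusted p = 0.00199). It read 362.3, 413.7 and 331.3 at 24 h and 732.7, 713 and 757.1 at 48 h. That value rests on 1 probe set: the other 3 for CAMKK2 gave -0.38, -0.19 and -0.25, so the gene as a whole has no settled direction.

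DECR2, a peroxisomal enzyme of fatty acid oxidation, read 107.9, 125 and 123.8 at 24 h and 292.2, 243.7 and 187.6 at 48 h, a rise of 0.97 ± 0.17 (limma adjusted p = 0.00238). Its arrays at 32 h, 105.5 to 147, still covered the 24 h range. EXT1, a polymerase of heparan sulphate, rose by 0.68 ± 0.13, the adaptor SH2D3C by 0.68 ± 0.14, the kinase TESK2 by 0.67 ± 0.15 and the low-affinity IgE receptor FCER2 by 0.73 ± 0.18. SRPK3 (1.78 ± 0.43), KLC3 (1.34 ± 0.35) and LINC00173 (0.77 ± 0.20) also rose and, like FCER2, were dim. SRPK3 read 5.5, 16.6 and 26.5 at 24 h, which shows how wide the spread of dim genes was.

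The largest falls were smaller than the largest rises. SDC1, syndecan-1 or CD138, the surface proteoglycan by which plasma cells are recognised, read 808.3, 777 and 873.1 at 24 h and 522.5, 580.5 and 667.4 at 48 h. It fell by 0.48 ± 0.12 on the log2 scale (limma adjusted p = 0.0448), a ratio of 1.39, and its other probe set gave -0.24. MFN2, mitofusin 2, which fuses mitochondria, read 622.3, 567.8 and 752.1 at 24 h and 448.8, 443 and 496.3 at 48 h, and changed by -0.47 ± 0.09 (limma adjusted p = 0.0074). A dim MFN2 probe set went the other way, at 0.59, and the third gave -0.39.

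APOO, MIC26, a subunit of the complex that shapes mitochondrial cristae, had the tightest groups of these. It read 1152.1, 1062.2 and 1118.1 at 24 h and 829, 840.4 and 817.5 at 48 h, and changed by -0.42 ± 0.08 (limma adjusted p = 0.00671). MAPKAP1, mSIN1, another subunit of mTORC2, fell by 0.42 ± 0.11 on the log2 scale (limma adjusted p = 0.0431) while RICTOR rose. Of 3 other MAPKAP1 probe sets 1 gave -0.40 and the others -0.04 and 0.08.

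The rest of the 12 lowest were of varied function. DDX5, an RNA helicase, changed by -0.50 ± 0.10, the RNA-binding RBM14 by -0.46 ± 0.10, the deadenylase TOE1 by -0.44 ± 0.09 and INO80B, a subunit of the INO80 chromatin remodeller, by -0.46 ± 0.11. ARHGAP11A, a GTPase-activating protein of dividing cells, changed by -0.55 ± 0.13, and LANCL2 and ERICH3 by -0.57 ± 0.14 and -0.46 ± 0.10. Of these 24 highest and lowest genes, 6 kept the call without each single array in turn: CAMKK2, DECR2, CCNG2, EXT1, RICTOR and APOO. The other 18 lost it without at least 1, 13 of them without 4 or more of the 6, and MAPKAP1 whichever was left out. Under the other processing settings only 4 of the 24 kept the call throughout: DECR2, APOO, DDX5 and ERICH3. In a fit of only the groups compared 17 lost it, EXT1 among them, and 6 did with arrays centred on their medians. CAMKK2, EXT1 and RICTOR lost it on the mean of their probe sets. KLC3 lost it in 9 of 10 settings.

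Some genes outside that rule are chosen here after their values were seen. BCHE, butyrylcholinesterase, read 814.4, 808.7 and 776 at 24 h and 1099.4, 1097.9 and 1084.9 at 48 h. It rose by 0.45 ± 0.05 with the lowest adjusted p of the comparison (2.7e-06, limma). Its 32 h arrays, 792.7 to 827.9, overlapped those at 24 h. LY86, a partner of a B cell Toll-like receptor, rose by 0.40 ± 0.06, and ASS1, which makes argininosuccinate from citrulline, by 0.35 ± 0.06. SAT1, which acetylates polyamines for breakdown and export, rose by 0.36 ± 0.06. Both 5-lipoxygenase, ALOX5 (0.44 ± 0.10), and the protein that presents arachidonic acid to it, ALOX5AP (0.41 ± 0.10), passed. The 2 other ALOX5 probe sets, which are dimmer, gave -0.02 and -0.12, so its direction rests on 1 probe set. ALOX5 lost the call without any 1 of 5 arrays and ALOX5AP whichever of the 6 was left out, while BCHE, LY86, ASS1 and SAT1 kept theirs.

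Among 41 tested genes of G1/S and DNA replication, 2 fell and none rose, against 0.422% of all genes that fell. The list's median log2 fold change was -0.10 and 7 members were above 0, against 0.037 and 57.72% for all genes. Here and below, lists are set beside all genes without matching for signal. With all genes split by mean signal into 4 bins of like size, the median ran from 0.12 in the dimmest to -0.02 in the brightest. CDC25A, the phosphatase that releases CDK2 at the start of S phase, read 420.8, 352.6 and 338.6 at 24 h and 250.3, 310.3 and 244.6 at 48 h. It fell by 0.46 ± 0.12 on the log2 scale (limma adjusted p = 0.0448), and by 32 h it read 254.4 to 276. CDC6, which loads the replicative helicase, read 1106.3, 993.5 and 1186.5 at 24 h and 837.9, 863.3 and 943.8 at 48 h, and changed by -0.31 ± 0.08 (limma adjusted p = 0.0349). None of 36 genes of G2/M and mitosis passed, with a median of 0.00: the proliferation marker MKI67 had -0.25 ± 0.10 (limma adjusted p = 0.257) and the kinase PLK1 -0.24 ± 0.08 (0.127).

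Of 25 tested genes of quiescence and FOXO targets, 2 rose, CCNG2 and TXNIP, and none fell, against 0.53% of all genes that rose. The list had a median of 0.15 and 19 members above 0, against 0.037 and 57.72% for all genes. TXNIP, which blocks glucose uptake and thioredoxin, read 1238.9, 1183.6 and 1199.6 at 24 h and 1431.8, 1411.8 and 1437.6 at 48 h. The groups were far apart for so small a rise, 0.24 ± 0.05 (limma adjusted p = 0.0132), and another TXNIP probe set gave 0.02. The CDK inhibitor CDKN1B had 0.17 ± 0.05 (0.112), CDKN1A 0.13 ± 0.17 (0.812) and CDKN2A, the textbook target of BMI1 repression, -0.06 ± 0.07 (0.738), all by limma and none past the threshold.

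The 4 cell cycle and quiescence genes above are shown with the 250 bases before their start, to set their promoters side by side (RefSeq, GRCh38.p14, written 5′ to 3′ on the gene's strand). Capitals mark TTTGGCG, an E2F-type motif, in CDC25A (chr3:48188418-48188667, minus strand) and CDC6 (chr17:40287629-40287878, plus strand). They mark GTAAACA, a forkhead-type motif, in TXNIP (chr1:145996580-145996829, minus strand) and CACGTG, an E-box, in CCNG2 (chr4:77156957-77157206, plus strand).
CDC25A: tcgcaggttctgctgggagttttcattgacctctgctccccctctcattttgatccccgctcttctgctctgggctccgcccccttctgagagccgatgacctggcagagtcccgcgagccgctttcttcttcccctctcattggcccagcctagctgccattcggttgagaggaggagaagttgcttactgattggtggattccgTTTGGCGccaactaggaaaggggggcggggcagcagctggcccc
CDC6: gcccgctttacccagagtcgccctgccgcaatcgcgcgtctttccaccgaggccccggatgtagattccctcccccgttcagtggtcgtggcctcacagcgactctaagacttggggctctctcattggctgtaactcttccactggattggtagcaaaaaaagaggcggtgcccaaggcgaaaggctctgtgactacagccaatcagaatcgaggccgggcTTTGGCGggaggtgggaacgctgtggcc
TXNIP: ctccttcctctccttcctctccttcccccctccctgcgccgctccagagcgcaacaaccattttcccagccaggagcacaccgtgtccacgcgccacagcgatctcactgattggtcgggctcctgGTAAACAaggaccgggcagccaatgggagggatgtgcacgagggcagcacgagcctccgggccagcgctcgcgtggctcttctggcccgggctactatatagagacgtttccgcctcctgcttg
CCNG2: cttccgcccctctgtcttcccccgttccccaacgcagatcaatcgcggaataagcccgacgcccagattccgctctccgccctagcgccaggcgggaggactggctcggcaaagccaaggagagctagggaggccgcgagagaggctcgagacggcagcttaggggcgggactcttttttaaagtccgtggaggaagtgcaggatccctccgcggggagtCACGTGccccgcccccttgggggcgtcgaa
The motif begins 44 bases before the start in CDC25A, 28 in CDC6, 124 in TXNIP and 30 in CCNG2. On either strand TTTGGCG was found in 1.6% of 27305 promoters of this length, in 3 of 59 genes that fell and 1 of 69 that rose. GTAAACA was in 2.98% of all, 4 of the 69 and 1 of the 59, and CACGTG in 6.49% of all, 7 of the 69 and 5 of the 59. Of 2 further motifs searched, CCAAT was in 33% of all promoters, 33 of the 69 and 22 of the 59, and the ETS-type CCGGAAG in 8.82% of all, 5 of the 69 and 13 of the 59. None of the 5 motifs contains another, and both strands were searched for each. Of the genes tested, from which the called genes come, 2.19% held TTTGGCG, 2.04% GTAAACA, 8.51% CACGTG, 14.5% CCGGAAG and 34.8% CCAAT. The counts for CACGTG, 10.1% of the rises and 8.47% of the falls, are near that share. A match is only a match of letters.

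**Figure D2:**
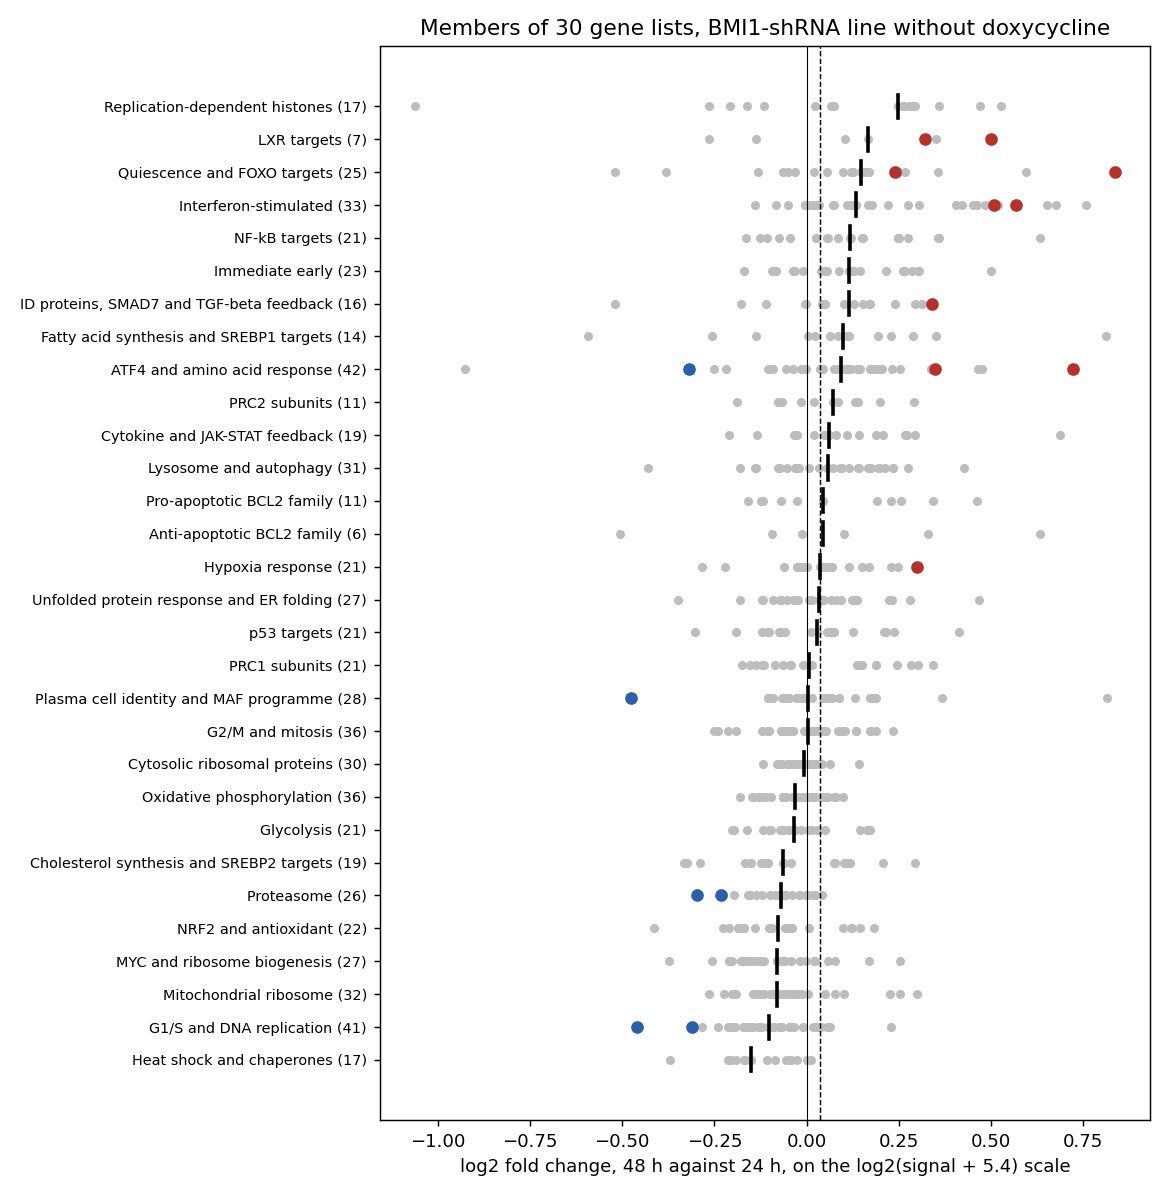
Log2 fold change at 48 h against 24 h (x axis) of every tested member of 30 gene lists (y axis, number tested in brackets), ordered by median. Red and blue points passed (limma, adjusted p under 0.05), grey points did not, black bars are list medians and the dashed line the median of all genes, 0.037; 9 of the 30 lists held a gene that passed.

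Amino acid genes moved in both directions. Of 42 tested members of the ATF4 list, SESN2 and SLC38A2 rose and SLC3A2 fell, and the median was 0.09. Over all genes 0.53% rose and 0.422% fell, and the median was 0.037. SLC38A2, the transporter SNAT2 that is induced when amino acids run short, read 2387, 2312.5 and 2374.7 at 24 h and 3089.9, 2999.6 and 2915.8 at 48 h. It rose by 0.35 ± 0.05 (limma adjusted p = 1.45e-04) with no overlap of the groups, and its probes are of the kind that can match other transcripts too. SLC3A2, the heavy chain 4F2hc shared by several amino acid exchangers, read 635, 587.5 and 664 at 24 h and 500.4, 505.7 and 500.3 at 48 h (-0.32 ± 0.07, limma adjusted p = 0.0223). Asparagine synthetase, ASNS, the classic ATF4 target, had 0.20 ± 0.09 (limma adjusted p = 0.296).

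Both LXR calls were rises, out of 7 tested genes, against 0.53% of all genes that rose. ABCG1, a cholesterol exporter, read 151.1, 135.8 and 108.1 at 24 h and 190.9, 168.8 and 201.4 at 48 h (0.50 ± 0.12, limma adjusted p = 0.0297). MYLIP, the ubiquitin ligase IDOL, read 856.4, 820.7 and 884.6 and then 996.5, 1063.7 and 1145.4 (0.32 ± 0.07, limma adjusted p = 0.0259). Of 19 genes of cholesterol synthesis none passed, with a median of -0.06: DHCR7, its last enzyme, had -0.33 ± 0.09 (limma adjusted p = 0.0515) and HMGCS1 -0.32 ± 0.12 (0.199). None of 14 genes of fatty acid synthesis passed, with SREBF1 at 0.35 ± 0.11 (limma adjusted p = 0.11).

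In the proteasome list 2 of 26 genes fell and none rose, against 0.422% of all genes that fell. The list had 6 members above 0 and a median of -0.07, against 57.72% and 0.037 for all genes. PSMD3, a subunit of the lid, read 1678.6, 1684.4 and 1734.6 at 24 h and 1442.6, 1312.7 and 1394.2 at 48 h, and changed by -0.30 ± 0.06 (limma adjusted p = 0.00671). PSMC3, an ATPase of the base, had -0.23 ± 0.05 (limma adjusted p = 0.0259) and lost the call whichever array was left out. No gene of the heat shock list passed, though 2 of 17 were above 0, against 57.72% of all genes. The 24 h and 48 h arrays of 8 did not overlap, all 8 lower at 48 h, against 7.41% of all genes. BAG3, a co-chaperone, had the lowest value there, -0.37 ± 0.11 (limma adjusted p = 0.0775). None passed among 32 genes of the mitochondrial ribosome (median -0.08), 36 of oxidative phosphorylation (-0.03), 30 cytosolic ribosomal proteins (-0.01), 27 of ribosome biogenesis (-0.08) and 21 of glycolysis (-0.03).

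Of 33 interferon-stimulated genes 2 rose and none fell, against 0.53% of all genes that rose. The list had 28 members above 0 and a median of 0.13, against 57.72% and 0.037 for all genes. CXCL10, a chemokine for T cells, read 345.6, 303.7 and 344.2 at 24 h and 457.1, 472.2 and 487 at 48 h (0.51 ± 0.08, limma adjusted p = 0.00112). IFITM1 rose by 0.57 ± 0.12 (limma adjusted p = 0.015), and near-identical members of its family can share its probes. Of 16 genes of ID proteins and TGF-beta feedback the co-repressor TGIF1 rose (0.34 ± 0.09), and of 21 hypoxia genes MXI1, an antagonist of MYC, rose (0.30 ± 0.06). Of the called genes in these lists, CXCL10, SLC38A2 and CCNG2 kept the call without each single array. PSMD3 lost it without 48 h replicate 2 or 24 h replicate 3, and IFITM1 and TXNIP without any 1 of 3 arrays. CDC6, ABCG1, SESN2, MXI1 and FCER2 lost it without any 1 of 4, and CDC25A, SDC1, SLC3A2, MYLIP and TGIF1 without any 1 of 5. For each of these 13 genes, 24 h replicate 3 was among those arrays.

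Of the 28 plasma cell and MAF genes SDC1 alone passed, against 0.422% of all genes that fell, and the list's median was 0.00. IRF4, the factor on which myeloma cells depend, read 1273.1, 1345.6 and 1431.4 at 24 h and 1336.3, 1337.9 and 1349 at 48 h (-0.01 ± 0.06, limma adjusted p = 0.973). PRDM1 had 0.05 ± 0.05, XBP1 -0.03 ± 0.08, CCND2 -0.05 ± 0.08 and MYC 0.02 ± 0.09, none of them past the threshold. The CCND2 value is that of its brightest probe set, and its 3 others gave -0.40, -0.66 and 0.08. Among regulators of survival BCL2L11 had 0.04 ± 0.08, MCL1 -0.09 ± 0.06, BCL2 0.10 ± 0.10 and BCL2L1 -0.51 ± 0.15 (limma adjusted p = 0.0772). No Polycomb gene passed in lists of 21 PRC1 and 11 PRC2 subunits, EZH2 having 0.07 ± 0.05.

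None passed either among 27 genes of the unfolded protein response (HSPA5 had 0.03 ± 0.08), 31 of lysosome and autophagy, 22 NRF2 genes, 21 p53 targets, 21 NF-kB targets, 23 immediate early genes, 19 of cytokine feedback or 17 histones. VEGFA had 0.06 ± 0.09. Of markers of other cell types, FCER2 of the mature B cell list was the only call. In that list 6 of 8 genes were tested. Its summed signal ran from 205.1 to 243.1 at 24 h and from 297.3 to 359.8 at 48 h, without overlap. Of its 6 tested members 5 were above 0, against 57.72% of all genes. The part of B-cell-like cells in the rise of FCER2 was not tested, and in bulk RNA more cells of a type and more RNA per cell cannot be told apart. Summed signals of the tested T cell, erythroid, fibroblast and epithelial markers overlapped between 24 and 48 h. Those of 4 monocyte markers ran from 48.5 to 50.3 and from 59.5 to 77.3, with no member called.

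At 32 h most of these genes had intermediate means. The 32 h mean lay between those at 24 and 48 h for 129 of the 140, 73 of the 78 rises and 56 of the 62 falls, and a median of 42.2% of the log2 change was present. The 140 were chosen on the same 24 h and 48 h arrays, so this is a description. Taken alone, 32 h against 24 h gave 1 gene, 0.0068% of those tested, with 1195 (8.13%) at an unadjusted p under 0.05. That gene was APOO, which read 768.6, 751.1 and 806.7 at 32 h (-0.52, limma adjusted p = 0.00447). The next smallest p-values were those of IRF2BP2 (0.23), CDC42SE1 (0.28) and PCP4 (-0.36), each with a limma adjusted p of 0.0636, and MSL3 (-0.31).

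From 32 to 48 h, 29 genes passed (0.197%), 16 up (0.109%) and 13 down (0.0884%), and 1311 (8.92%) had an unadjusted p under 0.05. KLC3 (2.04), LOC100130872 (1.12) and DECR2 (0.94) were the highest. The lowest were ID1, an inhibitor of differentiation factors (-0.75), BAG3 (-0.65) and RBM14 (-0.52). BCHE, ERICH3, CXCL10, ADTRP and ASS1 also passed in this interval, at 0.42, -0.48, 0.48, -0.39 and 0.33. Against 24 h, their log2 fold changes at 32 h were 0.03, 0.02, 0.03, -0.01 and 0.02. The count fell to 11 and 16 without 48 h replicates 2 and 3, and to 7 and 12 without 32 h replicates 2 and 3.

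The control-shRNA line gave a separate set of 6 arrays at the same times. There 124 genes passed (0.843%), 79 up (0.537%) and 45 down (0.306%). Of the 140 genes of the BMI1-shRNA line, 125 (89.3%) had the same sign in the control line, against 56.44% of all genes. The median log2 fold change there was 0.16 for the 78 rises and -0.11 for the 62 falls. All 3 control arrays at 48 h were above all 3 at 24 h for 36 of the 78, against 9.91% of all genes, and below them for 25 of the 62, against 7.86%. A total of 20 passed in both lines, 14.3% of one set of calls and 16.1% of the other, all 20 in the same direction. They were ABCG1, ALOX5AP, ASS1, BCAT1, BCHE, CAV1, GDA, MIR550A3HG, MXRA7, MYLIP, PLAC8, SAT1, SH2D3C, SLC38A2 and TXNIP, which rose, and ABHD12, ADTRP, DNLZ, IDH3A and MANEAL, which fell. As means of all their probe sets ADTRP and MANEAL had 0.06 and 0.12 in the BMI1-shRNA line, the opposite sign. The control line's count was 36 without its 48 h replicate 3, and 55, 49 and 58 without its 24 h replicates 1, 2 and 3.

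ABCG1 rose by 0.68 ± 0.12 in the control line (limma adjusted p = 0.00117) and by 0.50 ± 0.12 here, with a difference of -0.18 ± 0.17 between the lines. SLC38A2 rose by 0.21 ± 0.05 there against 0.35 ± 0.05 here, and BCHE by 0.27 against 0.45. CAMKK2, RICTOR, APOO and MFN2, which had 0.99, 0.63, -0.42 and -0.47 here, had 0.23, 0.09, 0.05 and -0.02 there. Their differences, 0.76 ± 0.24, 0.54 ± 0.17, -0.47 ± 0.12 and -0.45 ± 0.13, had limma adjusted p-values of 0.4, 0.395, 0.225 and 0.343.

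No gene passed the test of the difference between the lines (0 of 14705, or 0%, in limma), while 1204 genes (8.19%) had an unadjusted p under 0.05. On the mean of each gene's probe sets 6 passed, with a filter at the 75th percentile 4, in a fit of only these groups 2, and 1 without the control line's 48 h replicate 2 or its 24 h replicate 1. In simulated data this test recovered 25% of log2 differences of 0.5 and 59% of log2 differences of 1. A lack of calls therefore does not show the lines to be alike. Among the 14705 genes the smallest adjusted p, 0.0697 in limma, was shared by IRF4, AARS1 and INO80B. IRF4 rose in the control line by 0.40 ± 0.06 against -0.01 ± 0.06 here, a difference of -0.41 ± 0.08. AARS1, alanyl-tRNA synthetase, an ATF4 target, rose there by 0.39 ± 0.06 against -0.06 ± 0.06 here. INO80B had 0.31 there and -0.46 here. ANXA1, annexin A1, followed with 0.87 ± 0.12 there and 0.01 ± 0.12 here (limma adjusted p of the difference 0.0761).

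The ATF4 and plasma cell lists held more calls in the control line, and none of their members passed the test of the difference. Other lists held more there too. Among them were cholesterol synthesis, with 3 of 19 risen there, and heat shock, with 2 of 17 fallen there, and none called here. Over all genes 0.537% rose there and 0.306% fell. In the ATF4 list 9 of 42 rose there with a median of 0.20, against 0.537% and a median of 0.019 for all genes. Among the 9 were CTH (0.98 ± 0.16), SLC7A11 (0.62 ± 0.14), PHGDH (0.46 ± 0.10) and ASNS (0.36 ± 0.09). Here those read 0.34, 0.48, 0.11 and 0.20. An unadjusted p under 0.05 was found for 10 of the 42 differences, against 8.19% of all genes. The same held for 8 of 22 NRF2 genes and 7 of 19 genes of cholesterol synthesis. Cytosolic ribosomal proteins had a median of 0.26 there and -0.01 here. Of the plasma cell and MAF genes 6 of 28 rose there, against 0.537% of all genes. IRF4, POU2AF1 (0.51 ± 0.06), MAF (0.52 ± 0.12) and CD38 (0.36 ± 0.09) were among them. Here POU2AF1 had 0.18, MAF 0.17 and CD38 0.13. ID3 fell in the control line by 0.79 ± 0.15 on the log2 scale and had -0.11 ± 0.15 here. ID1 had similar values in both lines, -0.63 ± 0.16 there, where it fell, and -0.52 ± 0.16 here (limma adjusted p = 0.0916), with a difference of 0.11 ± 0.22.

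**Figure D3:**
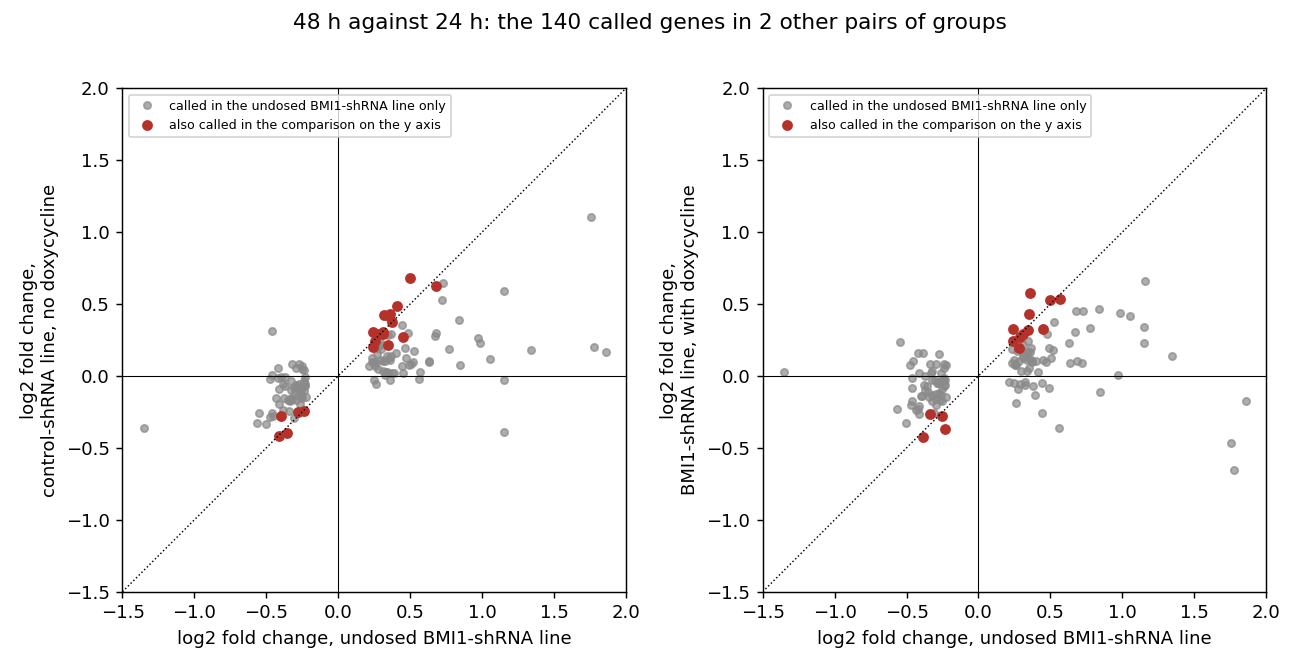
Log2 fold change at 48 h against 24 h of the 140 called genes, in the undosed BMI1-shRNA line that chose them (x axis) and, from separate arrays (y axis), in the control-shRNA line (left) and the BMI1-shRNA line with doxycycline (right). Red points also passed in the comparison on the y axis, 20 on the left and 15 on the right; the dotted line marks equal change, and most points lie nearer to 0 on the y axis than on the x axis.

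With the hairpin induced, the BMI1-shRNA line gave 317 genes at 48 h against 24 h (2.16%), 83 up (0.564%) and 234 down (1.59%). Of the 140, 107 (76.4%) had the same sign in these separate arrays, against 56.67% of all genes. The dosed arrays were apart in the same direction for 31 of the 78 rises, against 8.49% of all genes, and for 20 of the 62 falls, against 9.06%. A total of 15 passed there too, all in the same direction, 10.7% of the one set of calls and 4.73% of the other. SAT1 had 0.58, ASS1 0.43, BCHE 0.33, SLC38A2 0.32, ABCG1 0.53, IFITM1 0.54 and TXNIP 0.24 with doxycycline, all past the threshold. RICTOR (0.09), DECR2 (0.01) and SDC1 (0.08) had values near 0 there and did not pass.

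The change over the second day differed with doxycycline for 72 genes (0.49%), 12 more positive (0.0816%) and 60 more negative (0.408%) with it (1417, or 9.64%, at an unadjusted p under 0.05), and 10 of the 140 were among them. This difference uses the arrays that chose the 140, so the 10 are a description. R3HDM2, STK17B, GOLPH3L, SLC17A5 and TOR1AIP2 rose without doxycycline and read -0.36, -0.25, -0.13, -0.06 and -0.19 with it. IFRD2, ABHD12, PSMD3, PITHD1 and ARHGAP11A fell without it and read 0.08, 0.15, 0.08, 0.16 and 0.24 with it. The count of 72 was 47 without 48 h undosed replicate 2, 39 without 24 h undosed replicate 2 and 46 without 24 h dosed replicate 2. That of 317 was 182 without dosed replicate 1 at 48 h, and 193 and 200 without dosed replicates 2 and 3 at 24 h.

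**Figure D4:**
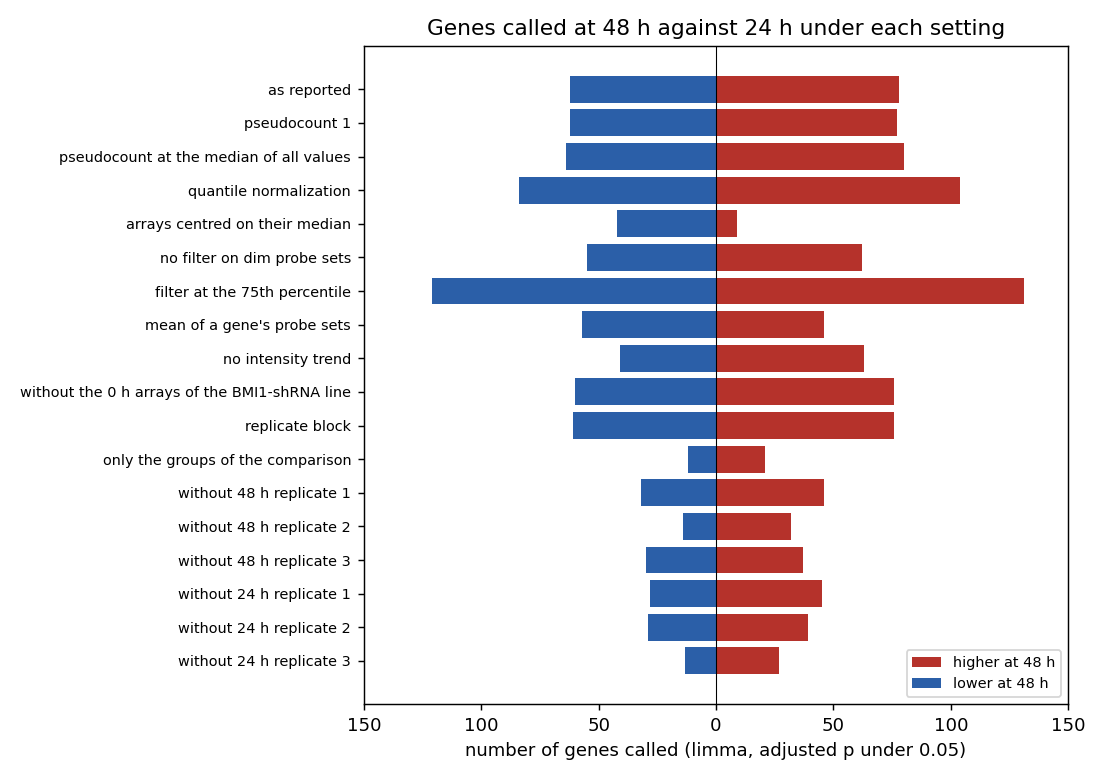
Number of genes called at 48 h against 24 h in the undosed BMI1-shRNA line (x axis, rises to the right in red, falls to the left in blue) under each setting (y axis). The count was 140 as reported, 51 with arrays centred on their medians, 33 in a fit of these groups alone, and 40 to 78 with 1 array left out.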

How the data were processed

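The deposited values were intensities: linear MAS5 signals per probe set for 42 arrays, per the submitters' processing notes, which name no version. The trimmed mean was the same on each array. Of 54675 probe sets, 35232 read at or above the array median on at least 3 arrays. Of these, 28475 had a single symbol in GEO's platform annotation, and the brightest per gene gave 14705 genes. BMI1's probe set, also annotated to a readthrough transcript, was kept. On log2(signal + 5.4), 5.4 being the 25th percentile, 14 group means were fitted with limma 3.58.1 in R 4.3.3 (eBayes with trend, two-sided, Benjamini-Hochberg over all genes, 28 residual and 8.62 prior degrees of freedom) for 7 comparisons. In tests on simulated data for 48 h against 24 h, 46% of log2 changes of 0.5 and 65% of log2 changes of 1 were recovered, with 4 false calls.

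Named genes are the 12 highest and 12 lowest called genes with groups apart and a mean signal of at least 50. For other comparisons they are the 3 highest and lowest, or the 5 smallest p-values where fewer than 5 passed. To these come up to 4 called or 2 other members of each list and 20 genes always given. Members, lists and rules were chosen with earlier results of these data known. The ± of a log2 fold change is its standard error, and 3 arrays a group limit the precision. Alternatives tried were pseudocounts, quantile and median scaling, filters, means of probe sets, no trend, fits without the 0 h arrays, with only the groups compared or with a replicate block, and leaving out each array.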

Additional observations from a re-analysis of the deposited data

Results flagged for a closer look

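The effect of the second day differed with doxycycline in the BMI1-shRNA line for 72 genes by a test of the difference itself (limma, adjusted p under 0.05). Of the 140 genes called without doxycycline, 10 were among them, with differences (dosed minus undosed, log2) of -0.93 for R3HDM2, -0.7 for STK17B, -0.52 for GOLPH3L, -0.38 for SLC17A5, -0.45 for TOR1AIP2, 0.32 for IFRD2, 0.43 for ABHD12, 0.38 for PSMD3, 0.54 for PITHD1 and 0.79 for ARHGAP11A. The highest differences among the 72 genes with enough signal to be named were 0.79 for ARHGAP11A, 0.72 for ENC1, an actin-binding protein, and 0.61 for SLC38A5, an amino acid transporter. The lowest were -1.02 for MT1E, a metallothionein, -0.94 for ID3 and -0.93 for RNF144B, a ubiquitin ligase. Both effects being compared rest on 3 arrays at each time.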

How the results depend on the processing

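The 140 calls at 48 h against 24 h stayed within 1.5 times under pseudocounts, quantile scaling, no filter, means of probe sets, no trend and without the 0 h arrays. The labels do not say whether replicate numbers pair the arrays. Deviations of same-numbered arrays correlated at -0.014, 0.026 and 0.003, which shows no shared effect but cannot exclude pairing. With a replicate block 137 genes passed. The count was 51 with arrays centred on their medians, 252 with a filter at the 75th percentile and 33 in a fit of only the groups compared, which has fewer arrays; for 32 h against 24 h it was 0, 6 and 2, and 7 with quantile scaling. For 48 h against 32 h it was 9 with centring, 6 with only those groups and 46 with quantile scaling; for the control line 36 with centring and 10 with only its groups; with doxycycline 200 and 69; and for the difference with doxycycline 11 and 27. For the difference between lines it was 4 with the stricter filter, 6 with means of probe sets and 2 with only those groups. Leaving out 1 array at a time gave 40 to 78, 1 to 2, 7 to 26, 36 to 113, 0 to 1, 182 to 260 and 39 to 66 genes, in the order 48 h against 24 h, 32 h against 24 h, 48 h against 32 h, control line, difference between lines, with doxycycline and difference with doxycycline. Where not named, the cause was not tested. The calls of 3 genes, DECR2, BCHE and APOO, held in every setting and without every single array. As means of probe sets, 7 genes took the opposite sign: MED23 (-0.0464), CLPTM1 (0.0243), DR1 (0.0029), PWP2 (0.0963), EXOSC2 (0.0233), ADTRP (0.0558) and MANEAL (0.1163). Of 167 other probe sets of called genes, 118 had the same sign.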

Other observations

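Called genes in no list, named after their values were seen and with no test of what they share, included several that act in mitochondria. TOMM22, a receptor of the import pore, changed by -0.41 on the log2 scale, TIMM13 and TIMM44, which carry proteins further in, by -0.26 and -0.24, and the carnitine carrier SLC25A20 by -0.34. MRPL54 of the mitochondrial ribosome changed by -0.38, the iron-sulphur protein GLRX5 by -0.30 and IDH3A of the citric acid cycle by -0.24. The mitochondrial enzyme TST went the other way and rose by 0.47. Others act in the nucleolus or in ribosome assembly: NOC2L changed by -0.37, TSR2 by -0.37, WDR74 by -0.23 and the RNase P subunit RPP40 by -0.25. KEAP1, the inhibitor of NRF2, changed by -0.25 and MYBL2, a factor of dividing cells, by -0.24. Among rises were PTCH1, the receptor of hedgehog ligands (0.37), the transcription factors SOX4 (0.53) and STAT6 (0.30), CBX5, a protein of heterochromatin (0.33), and the caveolin CAV1 (0.24). The only other probe sets of PTCH1 and STAT6 gave -0.02 and -0.13. A SOX4 probe set gave -0.27 and a CBX5 one -0.20, while the rest of both genes went up. PTCH1, SOX4, STAT6, CBX5 and CAV1 each lost the call on the mean of their probe sets. Of all the called genes named in this paragraph, SLC25A20 alone kept its call without each single array. MRPL54, GLRX5, IDH3A, TIMM44 and WDR74 lost it whichever of the 6 was left out, and the others without any 1 of 2 to 5 arrays.

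The 62 falls were brighter than the 78 rises, with median signals at 24 h of 850.1 and 316.6. With genes split by mean signal into 4 bins of like size, the dimmest 3677 genes held 4 rises and 1 fall and had a median log2 change of 0.12. The brightest 3676 held 35 rises and 47 falls with a median of -0.02.

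Apart from their share in the estimate of spread, the 0 h arrays with conflicting labels are given as values only. For 42 of the 140 genes their mean lay nearer to 48 h than to 24 h, and for 62 all 3 lay beyond all 24 h arrays on the side of 48 h; the 140 were chosen on the 24 h arrays. APOO read 796.4, 866.3 and 853.2 at 0 h, against 1062.2 to 1152.1 at 24 h and 817.5 to 840.4 at 48 h, and TXNIP read 1559.5, 1685.7 and 1505.4, above all arrays at 48 h. SLC38A2 read 2245.9, 2344.2 and 2216.9, near its 24 h level.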
